A study of Homo sapiens with 12 samples.

Results

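Histone genes of the human genome were examined in an RNA-seq count table from HCT116, an established colorectal carcinoma cell line of wild-type genotype. Members were the protein-coding genes whose GENCODE v44 name begins with *H1-*, *H2AC*, *H2BC*, *H3C* or *H4C*, together with *H2AZ1*, *H2AZ2*, *H2AX*, *H2AJ*, *H3-3A*, *H3-3B*, *MACROH2A1* and *MACROH2A2*. The annotation holds 82 such genes, of which 78 have an identifier in the table of 58037 genes. The 4 others, *H2AC18*, *H2AC19*, *H3C2* and *H3C3*, have no count under their GENCODE v44 identifier and enter only the descriptions of sequence below. Among the 78, 66 were treated as replication-dependent, 10 as polyadenylated variants (among them *H1-10* and the genes listed above) and 2, *H1-7* and *H1-8*, as germ cell linker histones outside the gene clusters.

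The study exposed the cells for 8 h to DMSO as vehicle, to 10 μM Nutlin-3a, to 20 nM NVP-2, or to both compounds, with 3 samples in each of these 4 groups. Nutlin-3a is an MDM2 antagonist that stabilizes and thereby activates p53, and NVP-2 inhibits CDK9, the kinase of P-TEFb, which releases paused RNA polymerase II. The libraries were made from poly(A)-selected RNA. All 12 columns of the table hold the same count for every gene, so that 0 genes differ between any columns. The values below therefore describe 1 HCT116 profile of 22720718 counts whose treatment is unknown. No treatment was compared, no spread between replicates could be measured, and all intervals are 95% Wilson intervals (exact binomial for ratios of counts) that cover counting error only.

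Histones package DNA into nucleosomes. A nucleosome is built from equal numbers of the core histones H2A, H2B, H3 and H4, and a linker histone of the H1 family binds where DNA enters and leaves it. Most histone protein is made in S phase from replication-dependent genes, which lie in clusters, have no introns, and end their mRNA not in a poly(A) tail but in a conserved stem-loop that is bound by SLBP and cut with the help of U7 snRNP. Variant or replacement histones are made throughout the cell cycle from single genes elsewhere in the genome, whose mRNAs are polyadenylated like those of other genes.

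The 3′ ends of the members were read from hg38, since poly(A) selection retains RNAs by their tails. A stem-loop was scored where 16 bases, starting within the 100 bases after the stop codon, begin with GG, end with CC, have 6 paired bases on each arm and carry a loop of 4 bases that starts with TT. Of the 70 replication-dependent genes in the annotation, 64 (91.4%) held such a sequence, against 3 of 19450 protein-coding genes that are not members (0.0154%). Those 3 were the histone genes *H3-4* and *H3-7* and the splicing factor gene *CDC40*. The stem-loop began between 22 and 67 bases after the stop codon in the replication-dependent genes, with a median of 35. With 1 unpaired position allowed, 66 of the 70 matched, the additional genes being *H2AC11* and *H2AC15*, whereas *H2BC10*, *H2BC12L*, *H3C6* and *H4C13* had no match in this window.

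The stem-loops are shown for the replication-dependent genes with most counts in the H1, H2B and H4 families and for *H2AX*, the variant that carries one. Capitals mark the stem-loop, 5 flanking bases stand on each side, sequences run 5′ to 3′ on the strand of the gene, and coordinates are those of hg38.
*H1-2* (chr6:26055739-26055764, minus strand): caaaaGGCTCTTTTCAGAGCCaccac
*H2BC5* (chr6:26158582-26158607, plus strand): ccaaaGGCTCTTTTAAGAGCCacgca
*H2BC12* (chr6:27146361-27146386, minus strand): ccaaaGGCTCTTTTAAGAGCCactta
*H4C3* (chr6:26104312-26104337, plus strand): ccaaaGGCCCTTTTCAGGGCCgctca
*H2AX* (chr11:119094893-119094918, minus strand): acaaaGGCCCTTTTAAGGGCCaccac

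The sequence of the stem followed the family. Among the replication-dependent genes with a match, all 14 H4 genes had an arm that starts GGCCC, and all 50 genes of the other families had one that starts GGCTC. The form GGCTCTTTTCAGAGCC, shown for *H1-2*, was the most frequent, with 40 genes, followed by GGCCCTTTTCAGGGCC with 10 H4 genes and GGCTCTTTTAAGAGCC with 9 genes. *H2AX* has the arm of the H4 genes. Its stem-loop starts 49 bases after the stop codon, while its canonical transcript in GENCODE v44 runs on for 1089 bases.

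**Figure D1:**
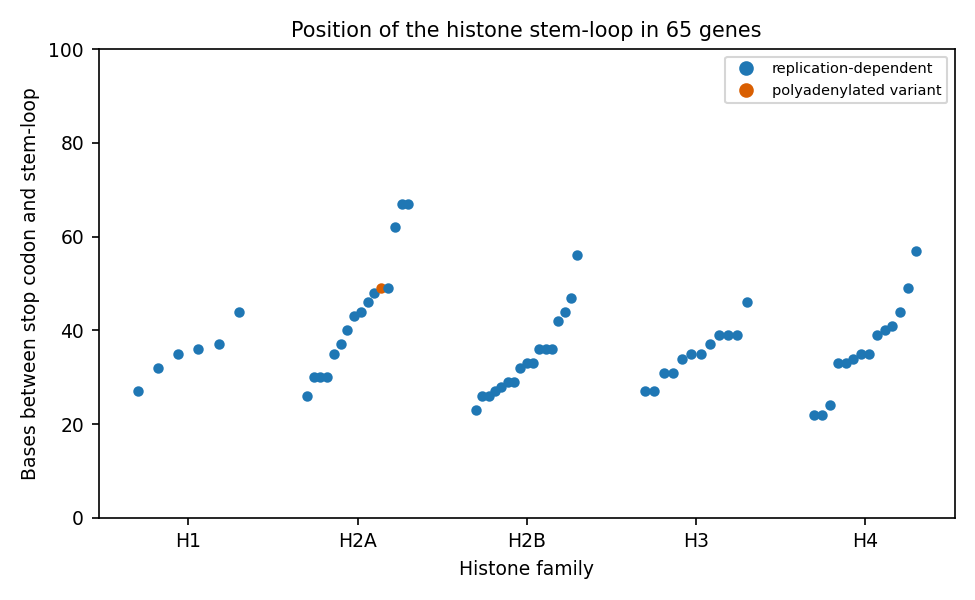
Number of bases between the stop codon and the first base of the stem-loop (vertical axis) for the 65 histone genes with a match, by family (horizontal axis), each point being 1 gene. Replication-dependent genes (blue) lie between 22 and 67 bases, and *H2AX*, the 1 polyadenylated variant with a stem-loop (orange), at 49 bases.

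The polyadenylated variants ended differently. The canonical poly(A) signal AATAAA was present in the last 40 bases of the canonical transcript in 6 of the 10 variants and in 63.1% of all protein-coding genes, against 2 of the 70 replication-dependent genes. In *H4C11*, 1 of these 2, the match lies directly before the stem-loop, and in the other, *H2BC21*, the canonical transcript extends 1801 bases past the stop codon, beyond its stem-loop. Variant signals are shown with the signal in capitals, for the H3.3 and H2A.Z genes with most counts.
*H3-3B* (chr17:75776434-75776459, minus strand): gactaaAATAAAatttttgaagttaa
*H2AZ1* (chr4:99948088-99948113, minus strand): aagttcAATAAAggtcatatcccaaa

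In the count table the 10 variants outweighed the replication-dependent genes by far. The variants together had 51007 counts, or 2245 CPM (counts scaled to a column total of 1000000; interval 2226 to 2265). The 66 replication-dependent genes together had 856 counts, or 37.7 CPM (35.2 to 40.3). The variants therefore held 98.3% (98.2 to 98.5) of the counts of both classes, 59.6 times those of the replication-dependent genes (55.7 to 63.8). The 78 members together made up 0.228% of the counts in the table. Since only poly(A)-selected RNA was sequenced, the abundance of mRNAs without a tail and their recovery in the libraries cannot be told apart, nor can the share of cells in S phase and the RNA per cell.

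Among members with a count in the table, the classes did not overlap on the CPM scale. *H2AC18*, *H2AC19*, *H3C2* and *H3C3* have no count under their identifier and could not be placed. All 10 variants had at least 10 counts, whereas 21 of the 66 replication-dependent genes did (31.8%), and 62.8% of all 19629 protein-coding genes of the table. A further 23 replication-dependent genes had between 1 and 9 counts and 22 had none. Among all 19629 protein-coding genes these numbers were 2519 and 4779. The lowest variant, *H2AJ*, had 283 counts, and the highest replication-dependent gene, *H1-2*, had 140, a ratio of 2.02 (1.65 to 2.49). The median was 113 CPM for the variants, 0.154 CPM for the replication-dependent genes and 3.21 CPM for all protein-coding genes. Genes on either side of the limit of 10 counts were *H3C6*, *H2AC13* and *H3C12* with 9 counts each and *H2BC4*, *H2BC21* and *H4C14* with 10 counts each. For a gene without counts, a floor of 3 counts corresponds to 0.132 CPM, and the upper Wilson bound is 0.169 CPM.

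**Figure D2:**
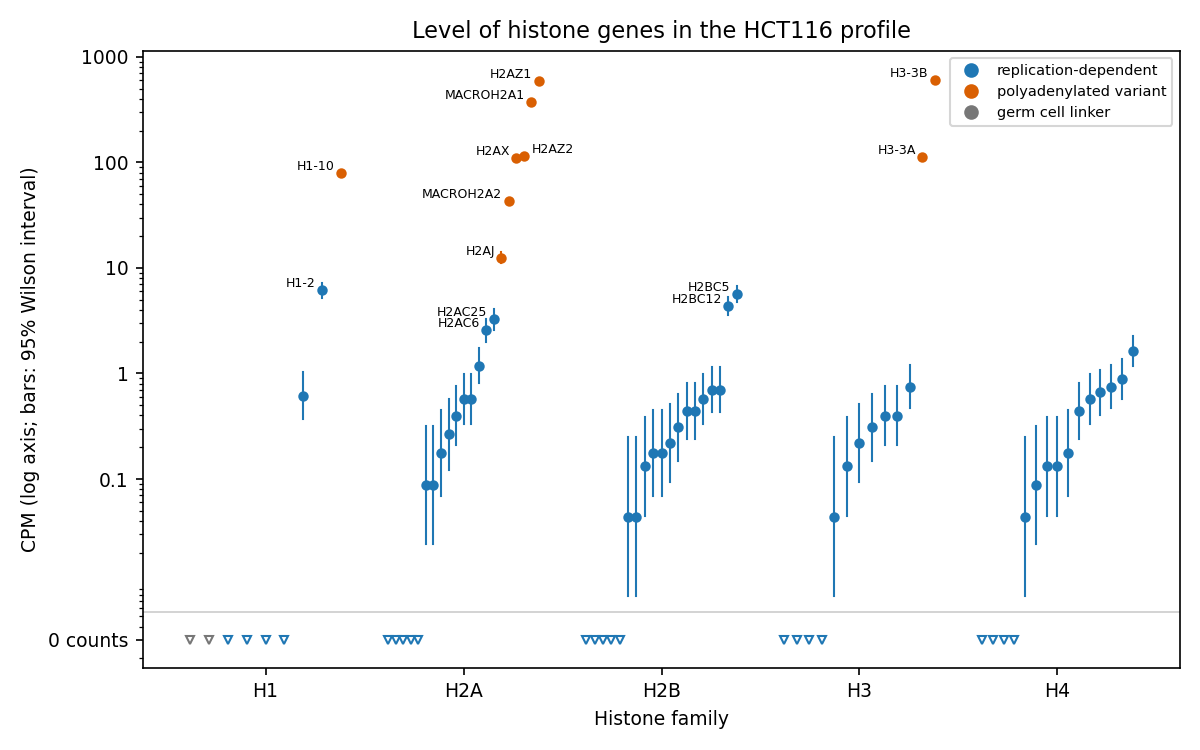
Level of single histone genes in CPM (vertical log axis) by family (horizontal axis), with vertical bars for the 95% Wilson interval and open triangles for genes with 0 counts. The polyadenylated variants plotted (orange) lie between 12.5 and 608 CPM, all above the replication-dependent genes (blue), which reach 6.16 CPM.

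Among the variants, the H3.3 genes *H3-3A* and *H3-3B*, which encode the same protein that is placed into chromatin also outside S phase, differed in level. *H3-3B* had 13815 counts, or 608 CPM (598 to 618). *H3-3A* had 2545 counts, or 112 CPM (108 to 116), so that *H3-3B* held 84.4% (83.9 to 85.0) of the counts of the pair. Of the 75-base windows within exons of the canonical *H3-3A* transcript, 10.1% occur at a single place in the genome, against 94.5% for *H3-3B*, and the part of this in their ratio was not tested.

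The H2A.Z genes, whose products mark promoters and regulatory elements, showed a similar imbalance. *H2AZ1* had 13467 counts, or 593 CPM (583 to 603), and *H2AZ2* had 2609 counts, or 115 CPM (111 to 119). *H2AZ1* thus exceeded *H2AZ2* 5.16-fold (4.95 to 5.38) in counts. The counts of *H3-3B* were 1.03 times those of *H2AZ1* (1.00 to 1.05), with the lower bound just above 1. Per kilobase the order was the opposite, with 261 RPKM for *H2AZ1* (257 to 266) and 99.1 for *H3-3B* (97.5 to 101), when the merged exons of GENCODE v44 serve as length. *H2AZ1* had the highest RPKM of the members and ranked 116 among the 19629 protein-coding genes.

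The macroH2A genes encode H2A variants with a large additional globular domain that are enriched in silent chromatin. *MACROH2A1* had 8411 counts, or 370 CPM (362 to 378). *MACROH2A2* had 978 counts, or 43.0 CPM (40.4 to 45.8), 8.60-fold fewer counts than its paralog (8.05 to 9.20). Both have long merged exons, and their levels per length were 21.8 and 2.87 RPKM, respectively.

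*H2AX*, whose protein is phosphorylated next to DNA double-strand breaks, had 2483 counts, or 109 CPM (105 to 114), and 68.6 RPKM. *H2AZ2* had 1.05 times the counts of *H2AX* (0.994 to 1.11), with *H3-3A* between them, so that counting error did not separate these 3 genes in CPM. *H2AJ*, a replacement H2A that accumulates in senescent cells, was the lowest of the variants in CPM, with 12.5 CPM (11.1 to 14.0).

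The linker variant *H1-10*, also known as H1X, had 1814 counts, or 79.8 CPM (76.2 to 83.6), and 52.7 RPKM. The germ cell linker genes *H1-7* and *H1-8* had 0 counts each.

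The replication-dependent genes were led by a few members of different families. *H1-2*, a somatic linker histone gene, had 140 counts, or 6.16 CPM (5.22 to 7.27). The H2B genes *H2BC5* and *H2BC12* followed with 129 and 99 counts, or 5.68 CPM (4.78 to 6.75) and 4.36 CPM (3.58 to 5.30). *H1-2* had 1.09 times the counts of *H2BC5* (0.848 to 1.39), which did not separate them, and 1.41 times those of *H2BC12* (1.09 to 1.85). The H2A genes *H2AC25* and *H2AC6* had 74 and 58 counts, and these 5 genes together carried 58.4% (55.0 to 61.7) of the 856 counts of the class. They were followed by *H4C3* with 37 counts, *H2AC11* with 27, *H4C11* with 20, *H3C10* and *H4C15* with 17 each, *H2BC15* and *H2BC26* with 16 each, *H4C5* with 15 and *H1-4* with 14. *H2AC14*, *H2AC20*, *H2BC6* and *H4C12* had 13 counts each.

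By family, the H1 genes were either present or without counts. Of the 6 replication-dependent H1 genes, *H1-2* and *H1-4* had at least 10 counts, and *H1-1*, *H1-3*, *H1-5* and the testis gene *H1-6* had 0. For comparison, 62.8% of all protein-coding genes had at least 10 counts. Among the H2A genes, 5 of 15 had at least 10 counts, with a median of 4 and a highest count of 74 for *H2AC25*. Among the H2B genes, 7 of 19 did, also with a median of 4. The H3 genes were lowest, since 1 of 11, *H3C10*, had at least 10 counts, and the next were *H3C6* and *H3C12* with 9. Of the 15 H4 genes, 6 had at least 10 counts, led by *H4C3*, *H4C11* and *H4C15*. The testis genes of the chromosome 6 cluster, *H2AC1* and *H2BC1*, had 0 counts.

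Summed over all members, the core histone families were far from equal in this table. H2A had 1252 CPM (1237 to 1266) and H3 had 722 CPM (711 to 733), while H2B had 14.0 CPM (12.5 to 15.6) and H4 had 5.50 CPM (4.62 to 6.55). H3 counts were 131 times those of H4 (110 to 158), and H2A counts were 89.4 times those of H2B (80.1 to 100.2). The families that are high are those with polyadenylated variants among the members, which held 99.3% of the H2A counts and 99.7% of the H3 counts, whereas no member of H2B or H4 is in the variant class.

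Within the replication-dependent class the families were closer. H2A genes had 9.15 CPM (7.99 to 10.5) and H2B genes 14.0 CPM, a ratio of 0.654 (0.547 to 0.781). H3 genes had 2.24 CPM (1.71 to 2.95), 0.408 times the counts of H4 (0.289 to 0.569). The H3 sum is without *H3C2* and *H3C3*, and the H2A sum without *H2AC18* and *H2AC19*. The H1 genes had 6.78 CPM (5.79 to 7.94).

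**Figure D3:**
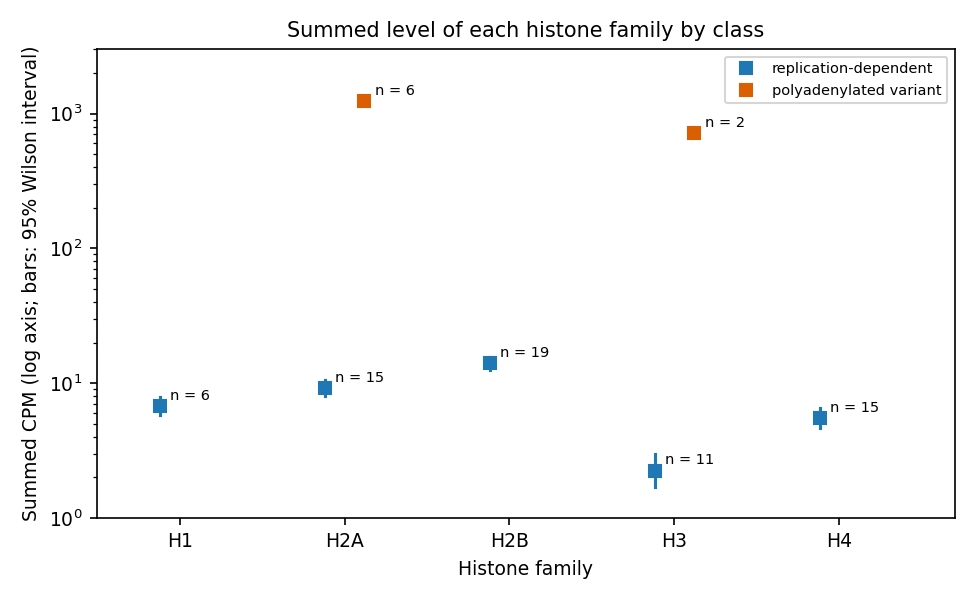
Summed CPM of the members of each histone family (vertical log axis) by family (horizontal axis) and class, with the number of genes n and vertical bars for the 95% Wilson interval, which are often smaller than the symbols. Replication-dependent sums (blue) lie between 2.24 and 14.0 CPM in all families, and the variants (orange) lie at 1243 CPM for H2A and 720 CPM for H3, with the H1 variant sum not plotted.

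Histone mRNAs are short, so the classes were also compared per kilobase of merged exons. These exons are those of GENCODE v44, whereas reads were counted with Gencode version 25, and the effect of this difference was not tested. The median was 41.0 RPKM for the variants, 0.188 RPKM for the replication-dependent genes and 0.589 RPKM for all protein-coding genes. An RPKM of at least 1 was reached by all 10 variants and by 12 of the 66 replication-dependent genes, against 44.6% of protein-coding genes. On this scale the classes overlapped. *H2BC12* with 8.80 RPKM (7.23 to 10.7), *H1-2* with 8.43 (7.14 to 9.95) and *H2BC5* with 6.59 (5.55 to 7.83) lay above *H2AJ* with 3.74 (3.33 to 4.20) and *MACROH2A2* with 2.87. *H4C3* had 4.02 RPKM (2.92 to 5.54), and its interval overlapped that of *H2AJ*. The merged exons of *MACROH2A2* sum to 14988 bases and those of *H2AJ* to 3332 bases, although their canonical transcripts have 1932 and 620 bases. With the canonical transcript as length, *H2AJ* was again the lowest variant with 20.1 RPKM, *H2BC5* the highest replication-dependent gene with 11.7 RPKM, and 0 replication-dependent genes lay above a variant. With the coding sequence as length there was no overlap either.

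**Figure D4:**
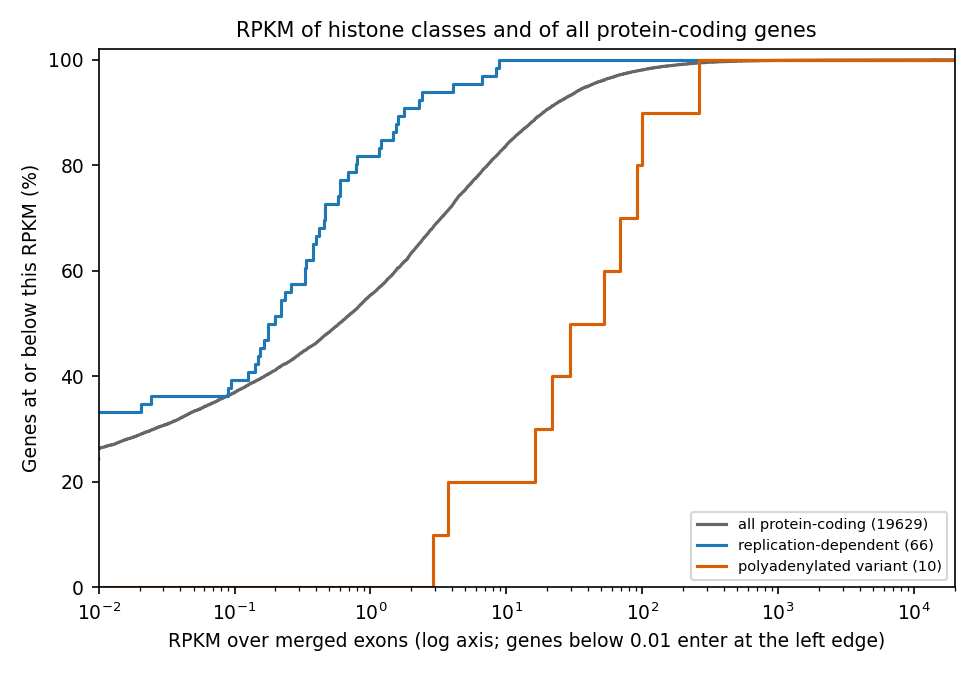
Share of genes (vertical axis, percent) at or below each RPKM (horizontal log axis) for the 66 replication-dependent genes (blue), the 10 polyadenylated variants (orange) and all 19629 protein-coding genes (grey). The median of the replication-dependent genes is 0.188 RPKM, below that of all protein-coding genes at 0.589, and the median of the variants is 41.0.

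The replication-dependent genes lie in few places of the genome. Chromosome 6 holds 53 of the 66 in 3 blocks separated by more than 300 kb. The first block, from 25723397 to 26285638, has 32 of them with 448 counts in all, of which *H1-2*, *H2BC5* and *H2AC6* had most. The genes *H1-3*, *H4C6*, *H4C7*, *H3C7*, *H2BC9*, *H3C8* and *H2BC10*, neighbours towards the end of this block, had 0 counts each. Of all 19629 protein-coding genes, 4779 had 0 counts. The second block, from 27125897 to 27147562, has 5 genes with 138 counts, 99 of them on *H2BC12*. The third, from 27807479 to 27893891, has 16 genes with 114 counts, none above 20. On chromosome 1 the 9 genes between 149782689 and 149887965 had 66 counts, and *H2AC25* and *H2BC26*, between 228434777 and 228463104, had 90. *H4C16* on chromosome 12 and *H2BC12L* on chromosome 21 had 0 counts.

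**Figure D5:**
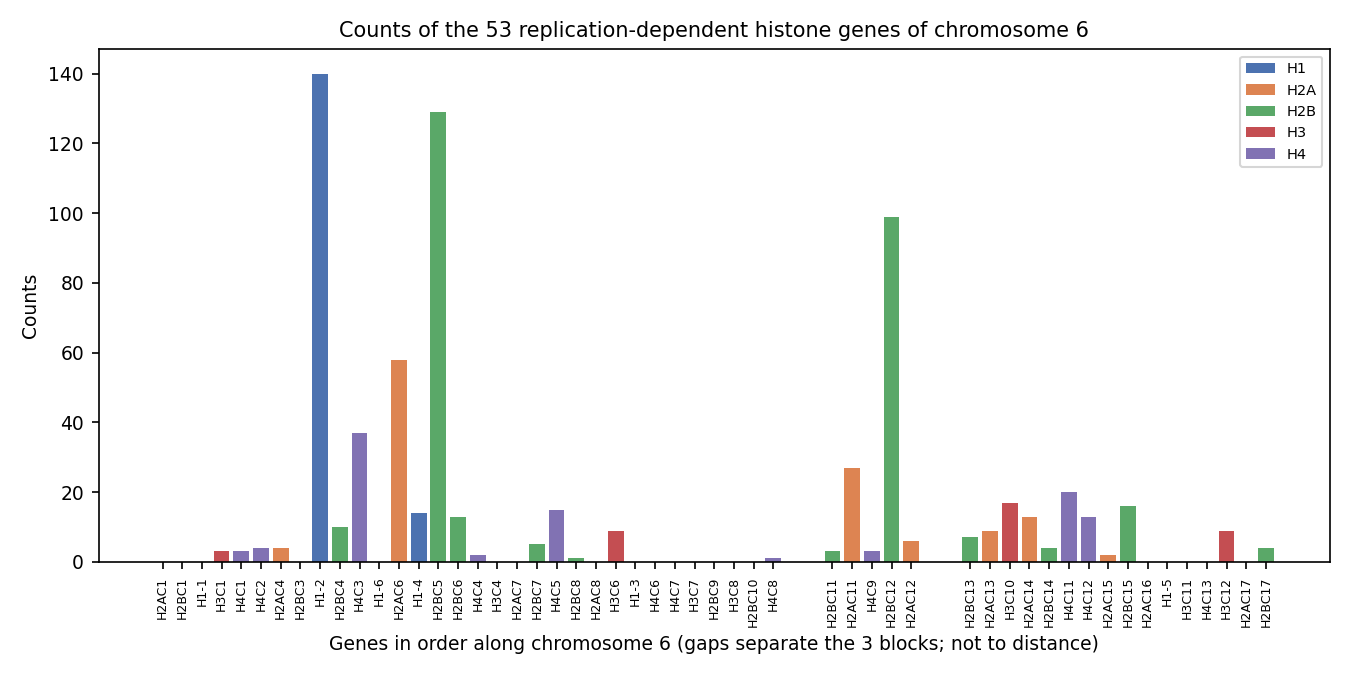
Counts (vertical axis) of the 53 replication-dependent histone genes of chromosome 6 in the order of their position (horizontal axis, not to distance), coloured by family, with gaps between the 3 blocks. *H1-2* with 140, *H2BC5* with 129 and *H2BC12* with 99 counts stand out, and a run of 7 genes near the end of the first block has 0.

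Many H2A and H2B genes are arranged head to head, with a short stretch between their starts. Among the members 12 such pairs were found with between 169 and 250 bases between the annotated starts. The H2A gene had more counts in 6 pairs, the H2B gene in 5, and both had 0 in *H2AC1*/*H2BC1*. At least 10 counts for either gene were found in 7 pairs. *H2AC25* had 74 counts against 16 for *H2BC26*, *H2AC6* had 58 against 10 for *H2BC4*, *H2AC11* had 27 against 3 for *H2BC11*, and *H2AC14* had 13 against 4 for *H2BC14*. In the opposite direction, *H2BC12* had 99 counts against 6 for *H2AC12*, and *H2BC15* had 16 against 2 for *H2AC15*. *H2AC20* and *H2BC21* had 13 and 10 counts.

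The stretch before *H2BC12* illustrates the elements that these promoters carry. Shown are the 120 bases upstream of its start in RefSeq (GRCh38.p14), with matches on either strand to CCAAT, to the octamer ATTTGCAT and to the motif TATAAA in capitals. It is shown because, over merged exons, its gene had the highest RPKM of the class. With the canonical transcript as length, *H2BC5* was highest. A match is a description of the sequence only.
*H2BC12* (chr6:27146859-27146978, minus strand): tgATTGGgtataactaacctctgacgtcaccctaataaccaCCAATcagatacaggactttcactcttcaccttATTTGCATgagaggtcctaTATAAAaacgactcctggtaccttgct

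These motifs were searched on both strands of the 250 bases before the start, for the 75 of the 82 genes that have an entry. CCAAT, the site of NF-Y, was found in 84.4% of 64 replication-dependent promoters and in 34.8% of the 15255 protein-coding promoters searched. It was present in every H1, H2A, H2B and H3 promoter searched and in 3 of 13 H4 promoters. TATAAA, the core of the TATA box, was found in 65.6% and 9.18%, respectively. The octamer ATTTGCAT, bound by OCT1, was found in 14 of 18 H2B promoters, in 11 of 16 H2A promoters, in 1 of 11 H3 promoters and in 1.65% of all promoters, and in 0 of the 6 H1 and 0 of the 13 H4 promoters. Paired H2A and H2B genes share most of these bases, so their matches are not independent. The octamer was found before *H2BC12*, with 99 counts, and also before *H2BC3* and *H2BC9*, with 0, but not before *H2BC5*, with 129. Of the 9 variant promoters searched, 6 held CCAAT, 4 TATAAA and 1, that of *H3-3B*, the octamer.

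Replication-dependent genes of a family are close copies of each other, which limits how far single genes can be told apart with reads of 75 bases. Each 75-base window within an exon of the canonical transcripts was therefore searched in the assembled chromosomes of hg38 on both strands. In 42 of the 66 genes every window occurred at a single place, in 55 at least 50% of the windows did, and in 5 no window did. The 55 genes carried 760 of the 856 counts. How reads with several places were assigned is not given in the sources used here. Among the 66 genes with counts in the table, 4 pairs shared at least 50% of their windows. The genes *H4C14* and *H4C15* share all of their windows and had 10 and 17 counts, or 27 together (1.19 CPM, 0.817 to 1.73). *H3C14* and *H3C15* likewise share at least 99.1% and had 5 and 7 counts. *H4C11* and *H4C12* share at least 91.4% and had 20 and 13 counts, and *H2AC13* and *H2AC14* share at least 61.3% and had 9 and 13. Counts of these genes are better read as the sum of each pair. All windows of *H1-2*, *H2AC25*, *H2AC6* and *H4C3* occurred once, as did 97.1% of those of *H2BC5* and 61.0% of those of *H2BC12*, which shares 33.0% with *H2BC12L*.

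A gene outside the members had more counts than any replication-dependent member with a count in the table, and it was singled out after its value was seen. *H2BC20P*, annotated in GENCODE v44 as a transcribed pseudogene of the H2B family on chromosome 1 (149850193 to 149850772, minus strand), had 311 counts, or 13.7 CPM (12.2 to 15.3), close to the 318 counts of all 19 H2B members together. It shares 78.5% of its windows with *H2BC19P*, which had 34 counts, and 2.57% with each of the members *H2BC18* and *H2BC21*, which had 1 and 10 counts.

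For 17 of the 66 replication-dependent genes, GENCODE v44 includes a transcript that reaches more than 100 bases past the stop codon. All stem-loops found lie within this distance, and 1 of the 17, *H3C6*, had no stem-loop match. This split was made after the counts were seen. Of these 17, 11 (64.7%) had at least 10 counts, near the 62.8% of all protein-coding genes, with a median of 10 counts. Of the 49 genes without such a transcript, 10 (20.4%) had at least 10 counts, with a median of 2. Per kilobase of merged exons the medians had the opposite order, with 0.165 RPKM for the 17 genes and 0.218 for the 49. Merged exons include the long annotations that define the 17 genes. With the canonical transcript as length the medians were 1.11 and 0.218 RPKM, higher for the 17 genes. The same order held with the coding sequence, with 1.41 and 0.282 RPKM. Over merged exons, 3 of the 17 and 9 of the 49 reached 1 RPKM, against 44.6% of protein-coding genes. Both sets had highly counted members, *H2BC5* with 129 counts in the first and *H1-2* with 140 in the second. Across the 66 genes the Spearman correlation of the count with merged exon length was 0.209, and with the share of windows held once -0.384. With the genomic distance from the stop codon to the farthest annotated transcript end, introns included, it was 0.296. The genes share 1 library and many of them share sequence, so these values are descriptive. *H2BC21*, whose canonical transcript holds both a stem-loop and a poly(A) signal, had 10 counts, and *H2AX*, with a stem-loop and a long transcript, had 2483.

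Genes whose products process histone mRNA or handle histones were also counted. All 12 genes listed for stem-loop 3′ end processing had at least 10 counts, against 62.8% of all protein-coding genes, with a median of 6.92 RPKM. Their highest was *SLBP*, the stem-loop binding protein, with 74.0 RPKM, followed by *CPSF3*, the endonuclease that cuts the mRNA, with 23.2 RPKM and by the cleavage factor gene *CSTF2* and the scaffold gene *SYMPK* with 18.9 each. *LSM11*, a subunit specific to U7 snRNP, was lowest with 47 counts (0.315 RPKM). The next lowest were *NPAT*, *ZNF473* and *CASP8AP2* with 0.871, 1.09 and 2.73 RPKM. The list includes *NPAT* and *COIL*, which do not process 3′ ends themselves. All 18 genes of histone chaperones and exchange had at least 10 counts, with a median of 14.0 RPKM. They were led by the FACT subunits *SSRP1* and *SUPT16H* with 117 and 96.0 RPKM and by *ANP32E*, a chaperone of H2A.Z, with 76.7. *SRCAP* was lowest with 0.216 RPKM. All 12 S phase genes had at least 10 counts, with a median of 57.4 RPKM. Highest were the replication clamp gene *PCNA* with 211 RPKM, the thymidylate synthase gene *TYMS* with 197 and the helicase gene *MCM7* with 166. *CCNE2* was lowest with 1.55 RPKM. Of 10 histone genes outside the rule, the centromeric H3 variant *CENPA* had 389 counts, *H3-5* had 54, and the 8 others, *H2AB1*, *H2AB2*, *H2AB3*, *H2AP*, *H2BW1*, *H2BW2*, *H3-4* and *H3Y1*, had 0 or 1.

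The label of the cell line was checked against markers. Of 7 genes of colon epithelium, 6 had at least 10 counts, with *KRT8*, *KRT18* and *KRT19* between 413 and 514 RPKM and *EPCAM* at 182, while *CDX2* had 65 counts (0.813 RPKM) and *VIL1* had 4 (0.0255 RPKM). Of 6 genes of other cell types, 5 also had at least 10 counts, all below 1 RPKM, with *COL1A1* highest at 0.972 RPKM, above *CDX2* and *VIL1*. The share of all protein-coding genes with at least 10 counts was 62.8%. *ALB*, *CD79A*, *COL3A1* and *PECAM1* had between 15 and 32 counts, and *PTPRC* had 0.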

How the data were processed

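Reads were mapped by the authors to hg38 and human rRNA sequences with ContextMap, using BWA, and counted per gene by strand with featureCounts and Gencode version 25. The authors deposited raw counts, which are not normalized, in 12 columns. Because these hold identical values, the column of the first DMSO sample was used as 1 profile of unknown treatment, with a total of 22720718 counts. The planned edgeR comparison of treatments was not run. How reads matching several places were counted is not given in the sources used here.

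Identifiers were matched without version to GENCODE v44 (56948 of 58037). CPM is relative to the column's total and RPKM to merged exons. Wilson and exact binomial intervals of 95% cover counting error only. Sequences came from hg38, and promoters from RefSeq. The searches were tested on simulated data. Python 3.11.15, scipy 1.17.1 and numba 0.67.0 were used. A variant that counts in the class totals is not reported here on its own. Otherwise named were all variants, *H1-7* and *H1-8*, the 15 highest replication-dependent genes, the first 3 by CPM of each family, genes just above and below 10 counts, head-to-head pairs with 10 counts in either gene, and, from the fixed lists, the first 3 by RPKM and all under 10 counts. Others were named after their values were seen. Members and lists were chosen with earlier results of these data known. Alternatives were another total, class, threshold or gene length.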

Additional observations from a re-analysis of the deposited data

How the results depend on the processing

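No paired analysis was possible because the 12 deposited columns are identical for every gene, which leaves no treatments to test. Tests with a replicate block, DESeq2 size factors, no filter on low counts, or each replicate left out were not run for the same reason.

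With the counts of the mitochondrial chromosome taken out of the total, the summed level was 42.1 CPM for replication-dependent genes and 2506 CPM for variants. With only genes of which at least 50% of the 75-base windows occur once, the sums were 33.4 and 2133 CPM (the latter chosen after seeing the data), and without *H2AX* the variants had 2136 CPM. The number of replication-dependent genes detected was 44 with at least 1 count, 7 with a CPM of at least 1 and 12 with an RPKM of at least 1. The median RPKM of replication-dependent genes was 0.331 with the canonical transcript as length, 0.436 with the coding sequence, and 1.20 among those with at least 10 counts. The median of the variants was 80.3 with the canonical transcript as length, 285 with the coding sequence, and 25.5 with *H1-7* and *H1-8* included. Leaving out *H1-6*, *H2AC1* and *H2BC1*, or adding *H1-7* and *H1-8* to the variants, left the sums as they were because these genes have 0 counts. The variants stayed above the replication-dependent genes in every sum and median computed for both classes.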
